A study of Rattus norvegicus with 12 samples.

Results

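The genes described here are the 5 paralogs of 2 families of RNA-binding proteins, Rbpms and Rbpms2 and the muscleblind-like genes Mbnl1, Mbnl2 and Mbnl3. They were selected by symbol and are 5 of the 33294 genes of the count table. Total counts were between 80842635 and 90771289 per library. Among counts of 1 to 20, even values were 2.06 to 2.36 times as frequent as odd ones. The study's methods kept fewer reads per sample than these totals, so there were fewer independent fragments than counts, and whether the mates of a pair were counted separately is not stated. The 12 libraries were poly(A) RNA-seq of PAC1 cells, a rat pulmonary artery smooth muscle cell (SMC) line whose cultures are kept more differentiated (PAC1-D) or more proliferative (PAC1-P) by how often and how thinly they are split. There were 4 groups of 3 libraries. D1 was PAC1-D given control siRNA, P was PAC1-P given control siRNA, RBPMS KD1 was PAC1-D given siRNA against RBPMS, and MBNL KD was PAC1-D given siRNAs against MBNL1 and MBNL2 together. The titles of the last group name MBNL1 alone, whereas its treatment field names both. No sample was without siRNA. Per the labels, 90 pmol of siRNA was given by reverse transfection, given again after 24 h, and cells were assessed 48 h later. The study's methods give longer intervals for both steps. All libraries came from this 1 line, and the study's methods describe biological replicates of each condition. The labels do not tie the libraries to separate cultures, and the p-values measure the spread between the libraries of a group.

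RBPMS and RBPMS2 are closely related proteins with a single RNA-recognition motif that bind RNA as dimers, and RBPMS is a regulator of alternative splicing in differentiated SMCs. Muscleblind-like proteins bind RNA with UGC motifs through zinc fingers and act on splicing, RNA localization and stability. MBNL1 and MBNL2 are widely expressed and partly redundant, and their sequestration by repeat RNA underlies myotonic dystrophy, while MBNL3 is known mostly from proliferating and regenerating muscle precursors.

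The siRNAs define which paralogs were targeted, so their sense strands are shown with the control. The labels name no siRNA against Rbpms2 or Mbnl3. Capitals mark the bases at which a siRNA differed from a qPCR primer of the study that it overlaps.
control siRNA (C2): aagguccggcucccccaaaug
RBPMS siRNA: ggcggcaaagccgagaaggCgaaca
MBNL1 siRNA: cacggaauguaaauuugcauu
MBNL2 siRNA: gaAgaguaauUgccugcuuuu
Rbpms forward primer: aaagccgagaaggAgaacacc
Mbnl1 forward primer: tgaaaatggaCgagtaatCgcc

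With U read as T and positions counted from 1 at the 5′ end of the siRNA, the RBPMS siRNA and the Rbpms primer shared 18 of 19 overlapping bases, with the substitution C20A. The MBNL2 siRNA shared 12 of 14 overlapping bases with the primer for the paralog Mbnl1, with the substitutions A3C and T11C. The match of each siRNA to the 5 transcripts was not analysed here.

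The targeted genes were examined first, as CPM, counts scaled to library size with TMM factors over the 12 libraries. In the RBPMS knockdown, Rbpms was at 37.2, 37.1 and 38.3 CPM, against 153, 156 and 141 CPM in D1. This was 37.5 ± 0.703 against 150 ± 7.90 CPM (mean ± SD, n = 3), a log2 fold change of -1.998 (SE 0.035, edgeR adjusted p = 1.13e-25), so 3.99-fold lower. In the MBNL knockdown, Mbnl1 was at 81.8, 81.9 and 83.7 CPM, against 342, 345 and 352 CPM in D1, and fell by 2.07 on the log2 scale (SE 0.026, edgeR adjusted p = 1.65e-31). Mbnl2 was at 52.4, 54.2 and 53.6 CPM there, against 180, 178 and 182 CPM in D1, and fell by 1.75 (SE 0.025, edgeR adjusted p = 2.64e-30). The libraries of knockdown and control did not overlap for any targeted gene. In these bulk libraries, fewer cells with a transcript and less RNA per cell cannot be told apart.

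A gene is said here to have risen or fallen at an edgeR adjusted p under 0.05 over all genes tested, and to be past the fold threshold where its absolute log2 fold change was also above 1. All 5 paralogs were tested in every comparison. Each of them passed the first threshold in each comparison with D1. Passing it was common, at 77.9% of all genes tested for P, 59.1% for RBPMS KD1 and 67.5% for MBNL KD. In P, 2 paralogs rose and 3 fell (40.4% and 37.6% of all genes tested). In RBPMS KD1, 3 rose and 2 fell (29.5% and 29.5%), and in MBNL KD, 1 rose and 4 fell (33.8% and 33.7%). Past both thresholds in P were Mbnl3, higher, and Rbpms, lower (27.6% of all genes tested, 16.4% higher and 11.2% lower). In RBPMS KD1 only the targeted Rbpms was, as a fall (4.68%, with 3.06% higher and 1.62% lower). In MBNL KD, Mbnl3 was higher and the targeted Mbnl1 and Mbnl2 were lower (10.2%, with 6.1% higher and 4.14% lower). The comparisons with D1 share its 3 libraries.

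**Figure D1:**
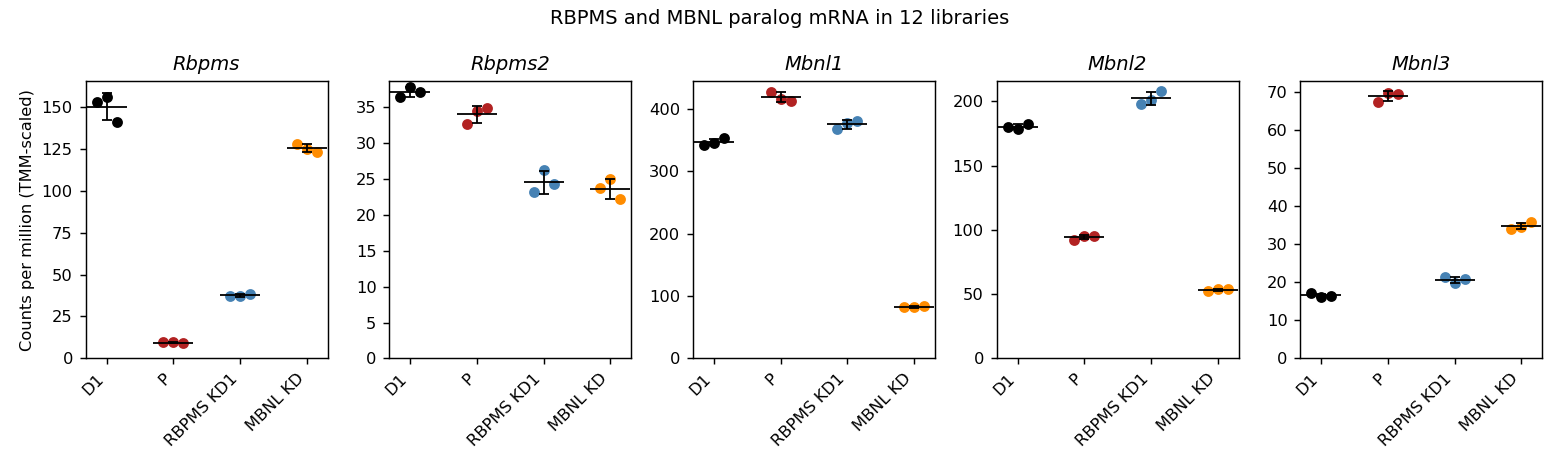
Level of each paralog in every library, in TMM-scaled CPM on axes that start at 0 and differ between panels (points, libraries; bars, mean ± SD, n = 3). Rbpms was highest in D1 and Mbnl3 in P, and Mbnl3 was also higher in MBNL KD than in D1.

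The untargeted paralog of each family changed when its relatives were knocked down, in opposite directions for the 2 families. Each also changed in the same direction in the knockdown of the other family, as given below. Mbnl3 was at 34.1, 34.6 and 35.7 CPM in the MBNL knockdown, against 17.1, 16.2 and 16.3 CPM in D1. Every knockdown library was above every control library. Mbnl3 rose 2.11-fold, a log2 fold change of 1.08 (SE 0.043, 95% interval 0.99 to 1.16, edgeR adjusted p = 2.71e-19). Rbpms2 was at 23.2, 26.3 and 24.3 CPM in the RBPMS knockdown, against 36.5, 37.9 and 37.2 CPM in D1. It fell by 0.60 on the log2 scale (SE 0.044, edgeR adjusted p = 1.63e-12), so it was lower together with its targeted paralog and not higher. Reads of Mbnl3 could be shared with an annotated pseudogene, Mbnl3-ps1, and how such reads were assigned is not stated.

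Each family was then followed across the knockdown of the other. In the MBNL knockdown, Rbpms was at 128, 125 and 123 CPM, below the 141 CPM of the lowest D1 library, and fell by 0.26 on the log2 scale (SE 0.028, edgeR adjusted p = 2.63e-09). Over 13 alternative analyses this log2 fold change was -0.30 to -0.17. Rbpms2 was at 23.8, 25.0 and 22.2 CPM and fell by 0.65 (SE 0.042, edgeR adjusted p = 3.26e-14). Both RBPMS genes were thus lower in the MBNL knockdown, Rbpms2 by more than Rbpms on this scale. In the RBPMS knockdown, the 3 MBNL genes rose by small amounts. Mbnl1 was at 367, 377 and 381 CPM (log2 fold change 0.11, SE 0.025, edgeR adjusted p = 0.000224, or 0.18 with limma on the normalised values), and Mbnl2 was at 198, 201 and 208 CPM (0.17, SE 0.026, edgeR adjusted p = 2.00e-06). Mbnl3 was at 21.3, 19.8 and 20.9 CPM (0.32, SE 0.049, edgeR adjusted p = 1.83e-06). None of these 5 changes reached the fold threshold.

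The knockdowns were also compared directly. Rbpms2 did not differ detectably between them, with 24.6 ± 1.60 CPM in RBPMS KD1 and 23.7 ± 1.39 CPM in MBNL KD (n = 3), and the libraries overlapped. The log2 difference of MBNL KD from RBPMS KD1 was -0.058, with a 95% interval of -0.16 to 0.042 (edgeR adjusted p = 0.319), and 69.5% of all genes tested passed the threshold in that comparison. Mbnl3 was higher in MBNL KD than in RBPMS KD1 by 0.75 on the log2 scale (SE 0.043, edgeR adjusted p = 1.22e-15). Rbpms was higher by 1.74 (SE 0.029), and Mbnl1 and Mbnl2 were lower (log2 fold changes -2.19 and -1.93), the direction given by the siRNAs.

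**Figure D2:**
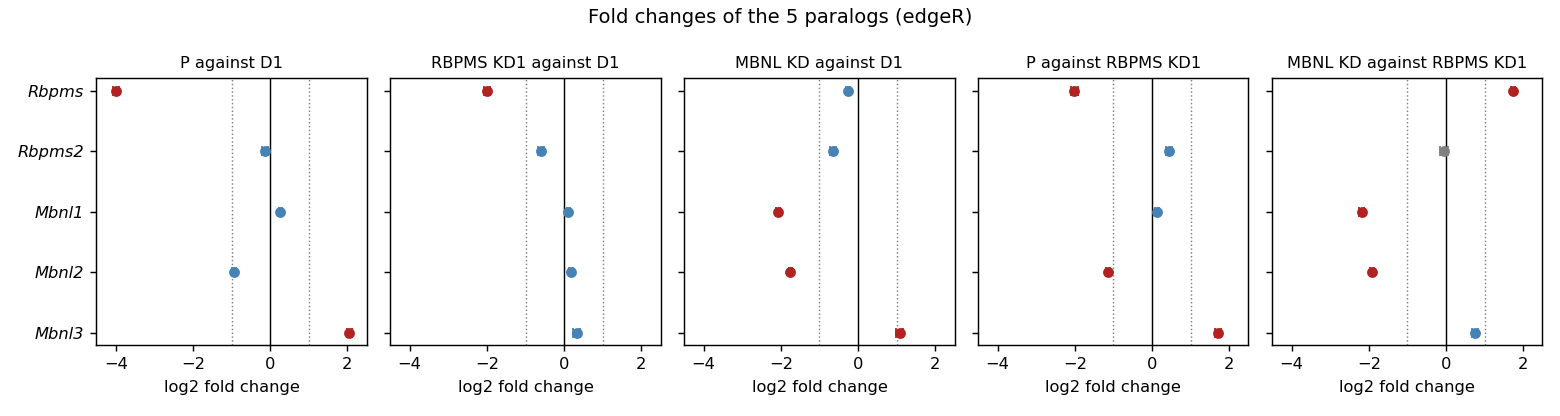
Log2 fold change of each paralog in the 5 comparisons (points; bars, 95% interval, often narrower than the point). Red marks paralogs past both thresholds, blue those past the adjusted p alone and grey those past neither, and dotted lines stand at log2 fold changes of -1 and 1. The only grey point is Rbpms2 in MBNL KD against RBPMS KD1.

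Of the comparisons with D1, the one with the proliferative state gave the largest change of Rbpms and of Mbnl3. Rbpms was at 9.52, 9.58 and 9.37 CPM in P, 15.9-fold lower than in D1 (log2 fold change -3.99, SE 0.040, edgeR adjusted p = 1.27e-38). This is also lower than in the RBPMS knockdown (log2 fold change -2.01, SE 0.047, edgeR adjusted p = 1.16e-28). Rbpms2, in contrast, was at 32.7, 34.5 and 34.9 CPM in P and fell by only 0.13 (SE 0.038, edgeR adjusted p = 0.00195). It was higher in P than in RBPMS KD1, with a log2 fold change of 0.44 (SE 0.045, edgeR adjusted p = 1.25e-10).

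The 3 MBNL genes went different ways in P. Mbnl1 was at 427, 416 and 413 CPM and rose by 0.27 on the log2 scale (SE 0.024, edgeR adjusted p = 6.58e-12). With limma on the authors' normalised values the same rise was 0.46. Mbnl2 was at 92.3, 94.9 and 95.3 CPM and fell by 0.94 (SE 0.026, edgeR adjusted p = 5.70e-26), just short of the fold threshold. Mbnl3 was at 67.4, 69.7 and 69.4 CPM and rose 4.15-fold (log2 fold change 2.05, SE 0.038, edgeR adjusted p = 3.87e-31). Against RBPMS KD1, P had more Mbnl3 (log2 fold change 1.71) and less Mbnl2 (-1.13), and 79.4% of all genes tested passed the threshold in that comparison. Mbnl1 differed there by 0.13 (SE 0.026, edgeR adjusted p = 3.42e-05), or by 0.28 with limma on the normalised values.

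Each paralog had its own order of group means. Rbpms was highest in D1, then MBNL KD, RBPMS KD1 and P. Rbpms2 was highest in D1, then P, then RBPMS KD1 and MBNL KD, which did not differ beyond their spread. Mbnl1 was highest in P (419 ± 7.54 CPM), then RBPMS KD1, D1 and MBNL KD, and Mbnl2 was highest in RBPMS KD1, then D1, P and MBNL KD. Mbnl3 was highest in P (68.8 ± 1.26 CPM), then MBNL KD (34.8 ± 0.861), RBPMS KD1 (20.6 ± 0.795) and D1 (16.5 ± 0.505 CPM). Apart from Rbpms2 in the knockdowns, no neighbouring groups overlapped in any of these orders. However, P and MBNL KD were not tested against each other, and the share of all genes without overlap was not counted.

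Markers of the SMC state also differed between the groups. The summed level of 8 contractile genes was 9804 to 10305 CPM in D1, 211 to 224 in P, 4886 to 5060 in RBPMS KD1 and 7829 to 7945 in MBNL KD. All 8 fell in P and in RBPMS KD1, where 37.6% and 29.5% of all genes tested fell. In MBNL KD, 6 fell and 2 rose (33.7% and 33.8% of all genes). The sum of 4 cell cycle genes was 608 to 625 CPM in D1, 729 to 753 in P, 484 to 506 in RBPMS KD1 and 373 to 375 in MBNL KD. In P, 2 of the 4 rose (40.4% of all genes), with Mki67 going from 239 ± 5.88 to 343 ± 6.18 CPM (n = 3) and Ccnb1 from 67.8 ± 0.935 to 77.6 ± 3.18 CPM. Top2a and Cdk1 had log2 fold changes of 0.050 and 0.031 there (edgeR adjusted p = 0.0633 and 0.322). All 4 fell in both knockdowns.

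Markers of other cell types were at low levels, apart from those of fibroblasts. The sum of 5 endothelial markers was 0.746 to 0.816 CPM in D1, 5.43 to 6.76 in P, 1.82 to 1.84 in RBPMS KD1 and 0.937 to 1.41 in MBNL KD. In P all 3 that were tested rose past the fold threshold (16.4% of all genes tested), Tek from 0.269 ± 0.00582 to 3.55 ± 0.387 CPM (n = 3), Vwf from 0.457 ± 0.0296 to 1.13 ± 0.201 CPM, and Cdh5 from 0 counts in every D1 library to 122 to 138 counts. Cdh5 could be tested only through its counts in P, while Pecam1 had at most 14 counts and Kdr at most 4 counts in any library. In RBPMS KD1 the 2 tested, Tek and Vwf, also rose past the fold threshold (3.06% of all genes). The sum of 4 neuronal markers was 0.993 to 1.60 CPM over the 12 libraries. The sum of 5 leukocyte markers was 0.290 to 0.368 CPM in D1, 0.353 to 0.641 in P, 0.399 to 0.4997 in RBPMS KD1 and 0.650 to 0.824 in MBNL KD, where Csf1r, the only one tested, rose past the fold threshold (log2 fold change 1.301, SE 0.291, edgeR adjusted p = 0.000244). Cd3e had 16 to 22 counts in P and 2 to 8 in D1, and it passed the filter on low counts only through P. Ptprc had at most 4 counts in any library.

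The sum of 6 cardiac and skeletal muscle markers was 4.67 to 5.34 CPM in D1, 2.74 to 3.15 in P, 1.96 to 2.74 in RBPMS KD1 and 12.3 to 12.9 in MBNL KD. Of the 3 tested in MBNL KD, Tnnt2 and Ryr2 rose (log2 fold changes 1.60 and 1.51), while Ckm fell by 1.53, from 0.980 ± 0.219 to 0.336 ± 0.0866 CPM (n = 3). All 3 were past the fold threshold, as were 6.1% of all genes tested as higher and 4.14% as lower. The sum of 4 fibroblast markers, which cultured SMCs also express, was 14389 to 15104 CPM in D1, 17932 to 19988 in P, 20028 to 21307 in RBPMS KD1 and 13020 to 13393 in MBNL KD. That sum was mostly Col1a1, at 14518 ± 377 CPM in D1 (n = 3), and the members did not all move alike. In P, 3 rose and Pdgfra fell (40.4% and 37.6% of all genes tested). In RBPMS KD1, 3 rose and Lum fell (29.5% and 29.5%), and in MBNL KD, 3 fell and Pdgfra rose (33.7% and 33.8%). The part of cell state or of other cell types in the changes of the paralogs was not tested.

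Composition within a family was taken as the share of its counts. Longer transcripts give more counts, so a share between genes is not a share of molecules, but the change of a within-library ratio between groups needs no scaling, and no lengths as long as the isoforms of each gene keep their lengths between groups, which was not tested. Rbpms2 made up 19.9% ± 0.856 of the RBPMS family counts in D1, 78.2% ± 0.685 in P, 39.6% ± 1.71 in RBPMS KD1 and 15.9% ± 0.707 in MBNL KD (SD, n = 3). The minor member of the family in D1 was thus the major one in P by counts. On the log2 scale, the Rbpms2 to Rbpms ratio was higher than in D1 by 3.85 (SE 0.056) in P and by 1.40 (SE 0.074) in RBPMS KD1, and its log2 difference in MBNL KD was -0.39 (SE 0.062).

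Mbnl3 made up 3.04% ± 0.115 of the MBNL family counts in D1, 11.8% ± 0.305 in P, 3.45% ± 0.167 in RBPMS KD1 and 20.4% ± 0.231 in MBNL KD (SD, n = 3). Relative to Mbnl1, Mbnl3 was higher than in D1 by 3.15 on the log2 scale (SE 0.036) in MBNL KD, which is 8.86-fold, and by 1.79 (SE 0.046) in P. That 8.86-fold shift combines the lower Mbnl1 and the higher Mbnl3. Mbnl2 made up 33.1% ± 0.161 of family counts in D1, 16.2% ± 0.406 in P, 33.8% ± 0.224 in RBPMS KD1 and 31.3% ± 0.414 in MBNL KD. The log2 ratio of Mbnl2 to Mbnl1 differed from D1 by -1.21 (SE 0.030) in P, 0.32 (SE 0.018) in MBNL KD and 0.055 (SE 0.012) in RBPMS KD1. All 9 ratio differences were without overlap between groups, and each had a two-sided exact permutation p of 0.1 (adjusted 0.1), the smallest that 3 against 3 libraries allow.

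The family totals add the members' levels up. The RBPMS family summed to 187 ± 8.07 CPM in D1, 43.5 ± 1.11 in P, 62.1 ± 1.58 in RBPMS KD1 and 149 ± 3.36 in MBNL KD (n = 3), which is 23.2%, 33.2% and 79.6% of D1 for the last 3 groups. The MBNL family summed to 543 ± 6.53 CPM in D1, 581 ± 4.78 in P, 598 ± 11.8 in RBPMS KD1 and 171 ± 2.40 in MBNL KD, which is 107%, 110% and 31.4% of D1. In MBNL KD, the family total was thus 3.18-fold lower than in D1 by counts, with the higher Mbnl3 included. The 6 differences in total had an exact permutation p of 0.1 each (two-sided, adjusted 0.1), again the smallest possible.

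**Figure D3:**
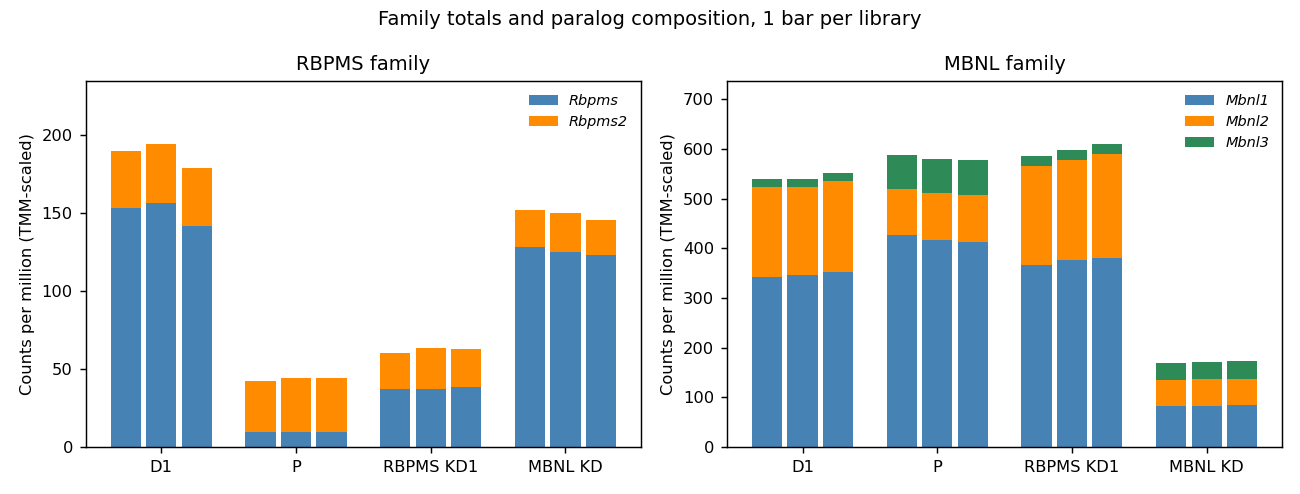
Summed CPM of the RBPMS family (left) and the MBNL family (right), 1 stacked bar per library, split by paralog. The RBPMS family total was lowest in P, where most of it was Rbpms2, and the MBNL family total was lowest in MBNL KD.

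Several genes are annotated within the spans of the paralogs, and their counts were examined after the values of the paralogs had been seen. LOC120097493, a long non-coding RNA gene within Rbpms, was at 16.0 ± 1.03 CPM in D1, 1.18 ± 0.201 in P, 15.3 ± 0.369 in RBPMS KD1 and 12.7 ± 1.35 in MBNL KD (n = 3). In P it was at 0.967, 1.20 and 1.37 CPM and fell with Rbpms (log2 fold change -3.77, SE 0.093, edgeR adjusted p = 2.44e-27). In RBPMS KD1, where Rbpms was 3.99-fold lower, its log2 fold change was -0.060, with a 95% interval of -0.17 to 0.047 (edgeR adjusted p = 0.364). In MBNL KD it fell by 0.33 (SE 0.065, edgeR adjusted p = 4.83e-05).

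In MBNL KD, LOC120097087, a long non-coding RNA gene within Mbnl2, was at 1.83, 1.85 and 2.15 CPM against 2.85, 2.79 and 3.02 CPM in D1. It fell by 0.57 (SE 0.123, edgeR adjusted p = 0.000152), where Mbnl2 fell by 1.75. LOC120100833, a protein-coding gene within Mbnl1, was at 3.95 ± 0.490 CPM in MBNL KD against 2.82 ± 0.337 CPM in D1 and rose by 0.49 (SE 0.113, edgeR adjusted p = 0.000372). LOC120097086, the other long non-coding RNA gene within Mbnl2, had 35 to 40 counts in MBNL KD and 13 to 21 in D1 and rose by 1.14 (SE 0.342, edgeR adjusted p = 0.00416). With limma on the normalised values these rises of LOC120100833 and LOC120097086 were 0.31 (limma adjusted p = 0.0501) and 0.42. The strand setting of the counting is not stated, so reads of a gene and of its overlapping partner cannot be told apart with certainty.

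**Figure D4:**
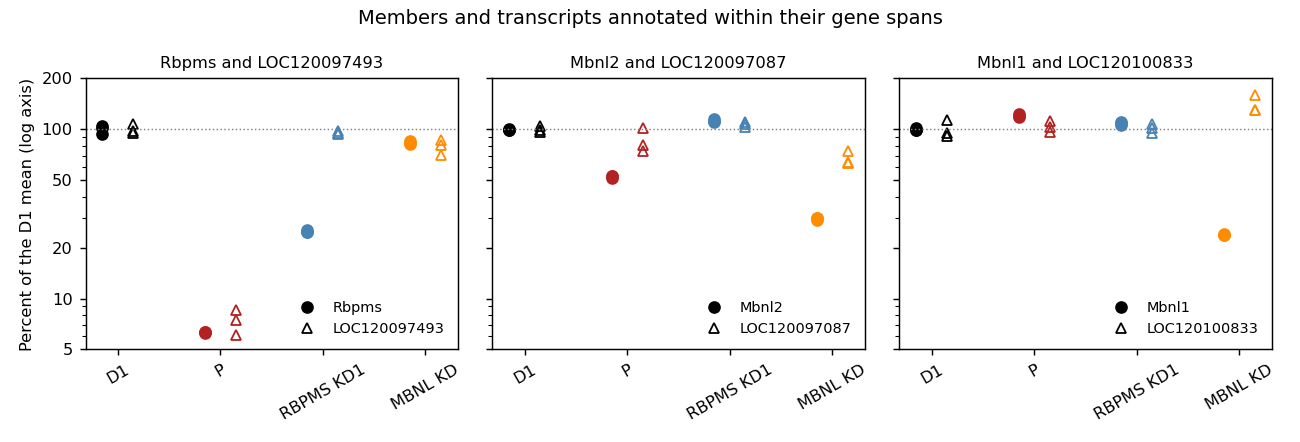
Level of Rbpms, Mbnl2 and Mbnl1 (filled circles) and of a gene annotated within each (open triangles), as a percentage of the D1 mean on a log axis, 1 symbol per library. LOC120097493 followed Rbpms down in P but was near the D1 level in RBPMS KD1.

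The paralogs were set beside a list of 33 symbols of other regulators of alternative splicing, of which 32 were in the count table. The symbol that was absent is Qki, and the same gene is listed there as Qk. Of the 32, 25 were tested in P, where 11 rose and 10 fell (40.4% and 37.6% of all genes tested), and 7 were past the fold threshold, all higher. All genes tested had 27.6% past both thresholds there, 16.4% higher and 11.2% lower. Of those 25, Rbfox1 and Nova1 had at most 2 counts in any D1 library and passed the filter on low counts only through P, so that they could only be higher. Among the 23 regulators tested in all 3 comparisons with D1, a restriction chosen after the data had been seen, 9 rose and 10 fell in P. Of these 23, 5 were past the fold threshold, or 21.7%. Their median log2 fold change was 0.034, against -0.036 over the 15500 genes tested in all 3 comparisons.

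In RBPMS KD1, 4 of the 23 rose and 11 fell (29.5% and 29.5% of all genes tested), and 2 were past the fold threshold, both lower (1.62% of all genes). The median log2 fold change was -0.22, against -0.0024 over the 15500 genes tested in all 3 comparisons. In MBNL KD, 3 of the 23 rose and 12 fell (33.8% and 33.7% of all genes tested), with 2 higher and 2 lower past the fold threshold (6.1% and 4.14% of all genes). The median was -0.089, against -0.0041 over the same 15500 genes.

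Of the 11 regulators past the fold threshold in a comparison with D1, Nova1, Raver2 and Rbfox1 were below 1 CPM in every group. Celf2, a CELF-family protein often described as an antagonist of MBNL in splicing, was at 133 ± 2.48 CPM in P and 25.7 ± 1.63 in D1 (n = 3, log2 fold change 2.37, SE 0.035), and at 25.8 ± 0.931 and 25.0 ± 0.230 CPM in RBPMS KD1 and MBNL KD. Its relatives Celf3 and Celf4 rose in the MBNL knockdown, by 2.95 (SE 0.151) and 2.58 (SE 0.230) on the log2 scale, from 0.522 ± 0.101 to 4.06 ± 0.178 CPM and from 0.319 ± 0.129 to 1.91 ± 0.242 CPM. Celf4 also rose in P, to 4.22 ± 0.111 CPM. Khdrbs3, an RNA-binding protein of the STAR family, rose in P (log2 fold change 1.37, SE 0.060) and fell by 1.25 (SE 0.085) in MBNL KD.

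Ptbp3, a polypyrimidine tract-binding protein, was at 72.1 ± 2.05 CPM in RBPMS KD1 against 170 ± 3.63 CPM in D1 (n = 3) and fell by 1.23 on the log2 scale (SE 0.029). It went the other way in P, where it rose by 0.99 (SE 0.026) to 338 ± 9.93 CPM. Elavl2 fell by 1.12 in RBPMS KD1 (SE 0.163), to 1.02 ± 0.188 CPM. Raver1, a PTB cofactor, was at 47.2 ± 1.89 CPM in MBNL KD against 97.1 ± 1.44 CPM in D1 and fell by 1.04 (SE 0.030). In P, Esrp2, an epithelial splicing regulator, rose by 1.72 (SE 0.094) to 7.38 ± 0.599 CPM, and Raver2 rose by 1.29 (SE 0.404) to 23 to 32 counts. The edgeR adjusted p of Raver2 was 0.00449, the highest among the regulators past the fold threshold. Nova1 had 34 to 62 counts in P and 0 to 2 in D1, and Rbfox1 had 22 to 32 counts in P and 0 in each of the other 9 libraries, which allows up to 3 counts in a library, or 6 if mates were counted separately.

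Rbfox2, a splicing regulator named here after its values were seen, fell in all 3 comparisons without reaching the fold threshold. It was at 227 ± 3.70 CPM in D1, 131 ± 2.68 in P, 117 ± 1.04 in RBPMS KD1 and 116 ± 1.78 in MBNL KD (n = 3). Its log2 fold change was -0.79 (SE 0.026) in P, -0.95 (SE 0.026) in RBPMS KD1 and -0.97 (SE 0.024) in MBNL KD. Between the knockdowns its log2 difference was -0.018, with a 95% interval of -0.067 to 0.031.

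**Figure D5:**
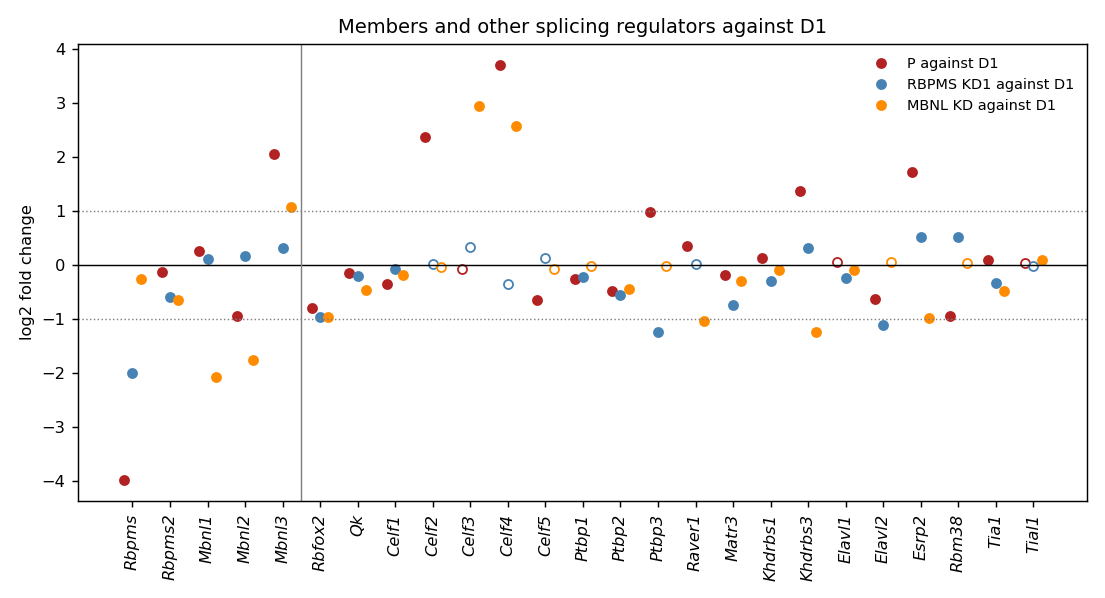
Log2 fold change against D1 of the 5 paralogs (left of the grey line) and of the 20 other splicing regulators with a mean of at least 1 CPM in a group. Filled points passed an edgeR adjusted p under 0.05, open points did not, and dotted lines stand at log2 fold changes of -1 and 1.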

How the data were processed

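Sequencing counts per gene were deposited by the authors, who reduced reads to equal depth, used STAR 2.7.11b for alignment to mRatBN7.2 and then counted reads by gene symbol, with no scaling. The strand setting is not given in the sources used here. A second deposited table holds a normalised signal, which the authors made by noise correction and quantile normalization, and it was used for alternatives only. It lists 19812 genes, the 5 paralogs among them, with a smallest value of 35.

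Groups followed the sample labels, with 3 libraries each. Each comparison was fitted on its 6 libraries in R 4.3.3 with edgeR 4.0.16: filterByExpr, TMM, quasi-likelihood F test, and Benjamini-Hochberg adjustment over all genes tested. SEs were derived from the F statistic and the fold change, and 95% intervals are 1.96 SE either side. Levels are CPM with TMM factors over the 12 libraries. Ratios had 0.5 counts added. Counting precision is limited by totals of 80842635 to 90771289 per library, which exceed the reads kept per sample, so precision is lower than the totals imply.

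The paralogs and the gene lists were chosen with earlier results of these data known. The genes named are the 5 paralogs, members of the marker lists, and the listed splicing regulators past both thresholds against D1. For each paralog past both, the 3 genes of most alike pattern over 9 libraries are also named. Exceptions are stated. Genes within paralog spans and biotypes came from a RefSeq table of another assembly, GRCr8, which served only to find which genes lie within a paralog. siRNA and primer sequences came from the study's supplementary tables. Alternatives were DESeq2 1.42.0, its size factors, limma 3.58.1 on log2 normalised values, no filter, all 12 libraries, a replicate block, halved counts and leaving out each library. Figures were drawn with matplotlib 3.10.9.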

Additional observations from a re-analysis of the deposited data

How the results depend on the processing

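All 25 log2 fold changes of the paralogs kept their direction and their side of the adjusted p threshold in the 13 alternatives each, and so did the 15 ratios and family totals in theirs, though these cannot pass a threshold with 3 against 3 libraries. The family totals under other scalings and the genes within paralog spans were added after the data had been seen. Limma on the authors' normalised values called 209 genes in RBPMS KD1 against D1, 784 in MBNL KD against D1 and 1050 in MBNL KD against RBPMS KD1, where edgeR on the counts called 745, 1643 and 1920. The cause was not tested. The share of calls that were higher was then 50.2% instead of 65.4% in RBPMS KD1 and 49.5% instead of 59.6% in MBNL KD. In P against D1 that share was 50.4% instead of 59.4%, with 3139 genes called instead of 4641. LOC120100833 changed sign under limma to -0.32 in P against D1, -0.047 in RBPMS KD1 against D1 and -0.27 in P against RBPMS KD1. Leaving out 1 library gave -0.016 to 0.15, -0.039 to 0.12 and -0.051 to 0.059 for these. Same-numbered libraries correlated between -0.033 and 0.020 in their deviations from the group means. Differently numbered libraries were not compared, so this cannot show whether replicate numbers pair the libraries. With the replicate block, 4593, 730 and 1634 genes were called in P, RBPMS KD1 and MBNL KD against D1, and no paralog crossed the threshold.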

Other observations

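The genes whose pattern over the 9 P and knockdown libraries was most like that of a paralog were found among 12812 genes, by the root mean square difference of log2 levels from the D1 mean. For Rbpms they were LOC120098113 (0.40), Lmod1 (0.59), which encodes a leiomodin of smooth muscle actin filaments, and Reep6 (0.60). Lmod1 was at 290 CPM in D1, 12.6 in P, 124 in RBPMS KD1 and 186 in MBNL KD (means of 3 libraries). For Mbnl1 they were Pigq (0.074), Arse (0.11) and Pigs (0.13), where Pigq and Pigs encode enzymes of GPI anchor synthesis and attachment. Pigq was at 62.8 CPM in D1, 75.3 in P, 72.0 in RBPMS KD1 and 14.9 in MBNL KD. For Mbnl2 they were Cep170b (0.095), RGD1561149 (0.15) and Capg (0.16), an actin-capping protein at 168 CPM in D1 and 44.4 in MBNL KD. For Mbnl3 they were Igf2bp2 (0.11), Ank3 (0.11) and Spaar (0.14). Igf2bp2, an RNA-binding protein that acts on mRNA stability and translation, was at 14.9 CPM in D1, 68.1 in P, 17.1 in RBPMS KD1 and 32.5 in MBNL KD. For Rbpms, Mbnl1 and Mbnl2, the pattern matched includes the fall of the gene under its own siRNA. These likenesses are descriptions over 9 libraries, ranked out of all genes compared, with no test.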
